A study of Homo sapiens with 4 samples.

Results

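The ATF4 integrated stress response genes are 10 genes, ATF4, ATF3, ATF5, DDIT3, DDIT4, TRIB3, ASNS, CHAC1, SLC7A11 and SLC3A2, chosen by name from the 41507 genes of the gene table, and all 10 were found there. They were chosen with earlier results of these data known, so counts set beside all genes are descriptions. Their RNA was sequenced in the lines SU-DHL-5 and Toledo, established cell lines of human diffuse large B-cell lymphoma (DLBCL). Each line was treated with DMSO, the vehicle, or with JQ1 at 1 µM, a small molecule that displaces the bromodomain and extra-terminal (BET) proteins from acetylated chromatin. The labels give 6 h of treatment, in RPMI1640 medium with serum, and a legend of the study gives a longer time. Each of the 4 conditions is 1 sample (n = 1) with 2 libraries in the table, and the sources used here do not say what separates the libraries. No difference between DMSO and JQ1 within a line therefore has a replicate check or a p-value. A test over both lines, taken as a pair, leaves 1 residual degree of freedom and is given beside the calls.

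In the integrated stress response, kinases that sense amino acid shortage, unfolded protein, heme shortage or double-stranded RNA phosphorylate the initiation factor eIF2. General translation then slows while translation of the ATF4 mRNA rises, and ATF4 protein, a bZIP transcription factor, switches on genes for amino acid uptake and synthesis, for glutathione supply and, when stress persists, for cell death. Since ATF4 is controlled to a large extent at translation, its mRNA level is not a measure of its protein, and no protein was measured in these files.

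ATF4 binds composite C/EBP-ATF response elements, and the stretches below show where the core TGATGNAA (N is any base) occurs near the start sites of these genes, together with the E-box CACGTG near ATF4. Windows of 250 bases before to 50 after each start site came from RefSeq on GRCh38.p14, and 9 of the 10 genes matched, with 19 windows. Both strands were searched, and the motifs were chosen after the windows had been seen. The core was found for 4 of the 9 genes, in 4 of the 19 windows, and in 3.62% of all 35116 windows. Each stretch has 30 bases, written 5′ to 3′ on the strand of the gene, with the match in capitals.
ATF3: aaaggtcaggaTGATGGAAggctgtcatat
ASNS: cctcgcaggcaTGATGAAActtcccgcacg
CHAC1: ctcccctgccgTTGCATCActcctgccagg
SLC3A2: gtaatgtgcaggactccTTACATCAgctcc
ATF4: ggaggagacggtCACGTGgtcgcggcggaa
The stretches lie at chr1:212565205-212565234, chr7:97872458-97872487, chr15:40953251-40953280, chr11:62881719-62881748 and chr22:39520465-39520494, with ASNS on the minus strand and the others on the plus strand. The match begins 191 bases before the start site for ATF3, 68 before for ASNS and 209 before for CHAC1, where it is read on the opposite strand. In SLC3A2 it begins at base 38 after the start site and is also read on the opposite strand, at 25724 bases inside the gene as the files place it and past both starts that its transcripts use there. The ATF3 match stands at a start other than that of ATF3_4, the transcript that held 84.9% of the summed transcript level. The ASNS match falls 66 bases inside the gene as the files place it, past the start at 97872542 that ASNS_3, with 91.1% of the summed transcript level, uses there. It is upstream of the RefSeq start and of the start at 97872165 that ASNS_5 and ASNS_6 use. The E-box, the sequence bound by MYC among others, was found for ATF4 only, in 7.26% of all windows, and the cAMP response element TGACGTCA for none of the 9 genes, in 1.85% of all windows. A match is a description of letters, and no binding was measured here.

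Levels are RPKM (reads scaled by gene length and by the library's mapped reads). Ratios are log2((JQ1 + 0.1)/(DMSO + 0.1)) of the mean of the 2 libraries, which understates the change of a low gene. A gene entered a comparison where its mean over the 4 libraries of the line was at least 1 RPKM, which 9 of the 10 genes passed in each line and SLC7A11 in neither. It was called higher or lower where both JQ1 libraries lay beyond both DMSO libraries and the means differed at least 2-fold. The 95% intervals of the log2 ratio of reads per mapped read are binomial and exact. They cover counting error only, not the spread between cultures or between the 2 libraries of a sample. The libraries of each sample differed by more than counting error, so an interval that leaves out 0 does not show a change beyond their spread. The intervals were computed from read numbers recovered from the RPKM values. Fewer cells of a kind and less RNA per cell cannot be told apart in such bulk samples.

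The libraries held from 14617583 to 17679831 mapped reads, of which 94.7% to 95.3% lay on genes. Sampling noise alone gives a mean chi-square of 1 per gene between libraries of a sample, and the pairs had 6.94 (DMSO) and 1.98 (JQ1) in SU-DHL-5 and 15.3 (DMSO) and 4.61 (JQ1) in Toledo. All 6 B cell markers examined were detected in both lines, and 3 of the 6 were called lower with JQ1 in each, MS4A1 and CD22 among them, while CD79B in SU-DHL-5 (log2 ratio 0.01) and PAX5 in Toledo (0.27) were not lower. No T cell marker and no monocyte or granulocyte marker reached the filter. The 5 T cell markers summed to 1.24 and 1.00 RPKM with DMSO and 0.120 and 0.0452 with JQ1 in SU-DHL-5, nearly all from CD3E, and to at most 0.154 in Toledo. The 5 monocyte and granulocyte markers summed to 1.16 and 1.27 RPKM with DMSO and 0.272 and 0.119 with JQ1 in SU-DHL-5, and to between 0.103 and 0.252 in Toledo, with CSF3R and FCGR3B at 0 in every library. Of 3 fibroblast markers, DCN was at 5.66 and 5.09 RPKM with DMSO and 0.742 and 0.616 with JQ1 in SU-DHL-5, and COL1A1 at 2.29 and 2.72 against 0.228 and 0.397 in Toledo. The part of these in the results below was not tested.

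With JQ1, the ATF4 genes were mostly lower, and among those past the filter TRIB3 and CHAC1, a pair of stress-induced targets, had the lowest ratios. In SU-DHL-5, 2 of the 9 genes that passed were called lower (TRIB3 and CHAC1), beside 5.54% of all 9094 genes tested, and 0 were called higher, beside 1.68%. In Toledo, 1 of 9 was called lower (TRIB3), beside 6.81% of all 9380 genes tested, and 0 were called higher, beside 1.68%. TRIB3 alone was called in both lines, and 2.52% of the 8495 genes tested in both lines were called lower in both. By library overlap alone, with no fold asked, 6 of the 9 lay below DMSO in SU-DHL-5 and 1 above, where 38% and 42.3% of all genes tested did. In Toledo, 7 of the 9 lay below DMSO and 2 above, where 42.9% and 29.7% did. The 9 genes had a median ratio of -0.23 in SU-DHL-5, where that of all genes tested was 0.02. Toledo gave -0.47 for the 9 genes and -0.06 for all genes tested.

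A limma fit over the 4 samples, with the line as a block, tested the change that both lines share, and it was added after seeing the data. It has 1 residual degree of freedom and leans on the spread shared across the 8495 genes, so it speaks for these lines only. By an adjusted p under 0.05 it called 3 of the 9 genes lower, where 14% of all genes were, and 0 higher, where 10.2% were. The 3 were TRIB3 (mean log2 ratio -1.35 ± 0.17 SE, limma adjusted p = 0.00206), CHAC1 (-1.02 ± 0.14, adjusted p = 0.00307) and DDIT3 (-0.48 ± 0.13, adjusted p = 0.0366), lower in both lines each. ATF4 (-0.40 ± 0.13, adjusted p = 0.0667), ATF5 (-0.51 ± 0.18, adjusted p = 0.0745) and SLC3A2 (-0.31 ± 0.14, adjusted p = 0.149) missed the threshold by limma. The adjusted p was 0.597 for ATF3, 0.663 for DDIT4 and 0.601 for ASNS in the same limma fit. DDIT4 and ASNS differed in direction between the lines. A fit of the change shared by both lines therefore cannot show whether these genes changed within a line.

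**Figure D1:**
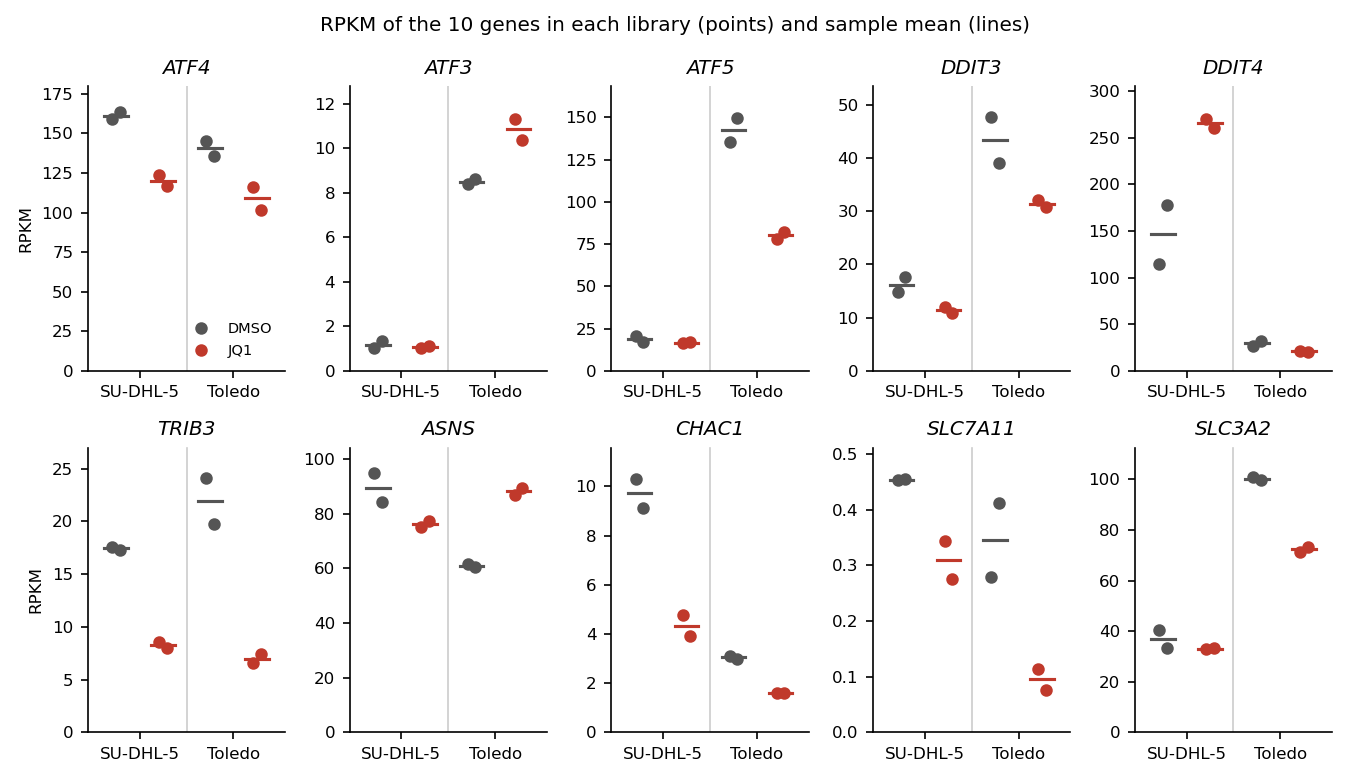
RPKM (y axes, each from 0) of the 10 genes in each of the 8 libraries, with DMSO in grey, JQ1 in red, points for libraries and lines for the mean of the 2 libraries of a sample. TRIB3 and CHAC1 are lower with JQ1 in both lines, while DDIT4 and ASNS differ in direction between SU-DHL-5 and Toledo.

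ATF4 itself (chr22:39520564-39522686) was lower with JQ1 by about the same amount in both lines. In SU-DHL-5 it stood at 159.1 and 163.6 RPKM with DMSO and at 123.8 and 116.6 with JQ1, a log2 ratio of -0.42 (95% interval -0.47 to -0.38). In Toledo it stood at 145.3 and 136.1 RPKM with DMSO and at 116.2 and 101.7 with JQ1, a log2 ratio of -0.37 (-0.42 to -0.33). The libraries of the 2 treatments did not overlap in either line, and the JQ1 level was 74.5% and 77.4% of the DMSO level. One transcript, ATF4_2, held 99.6% of the summed transcript level, and the 4 processed copies of ATF4 named in the annotation are listed at 0 in every library.

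Of the 3 other transcription factors, DDIT3 was lower in both lines, ATF5 was lower in Toledo and barely so in SU-DHL-5, and ATF3 was higher in Toledo. DDIT3 (CHOP, chr12:57516588-57520517) encodes a C/EBP family factor linked to cell death under lasting stress. Its level was 14.8 and 17.6 RPKM with DMSO and 12.0 and 10.9 with JQ1 in SU-DHL-5 (log2 ratio -0.50, -0.68 to -0.32). In Toledo it was 47.7 and 39.2 RPKM with DMSO and 32.0 and 30.7 with JQ1 (-0.47, -0.58 to -0.37). The libraries did not overlap in either line.

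ATF5 (chr19:49928702-49933936) encodes a bZIP factor that, like ATF4, is translated when eIF2 is phosphorylated. In Toledo it was at 135.7 and 149.4 RPKM with DMSO and 78.2 and 82.3 with JQ1, well apart, with a log2 ratio of -0.83 (-0.87 to -0.78). In SU-DHL-5 it was at 20.8 and 17.3 RPKM with DMSO and 16.3 and 17.3 with JQ1, a log2 ratio of -0.18 (-0.29 to -0.07). There the higher JQ1 library lay below the lower DMSO library by less than 0.1 RPKM. ATF5_2, the transcript with 99.5% of the summed transcript level, overlapped between treatments in SU-DHL-5. It was at 23.4 and 19.4 RPKM with DMSO and 18.5 and 19.8 with JQ1.

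ATF3 (chr1:212565334-212620777) encodes a bZIP factor that is induced by many stresses and can act as a repressor. In Toledo it stood at 8.39 and 8.62 RPKM with DMSO and at 11.3 and 10.4 with JQ1, a log2 ratio of 0.35 (0.22 to 0.49), the libraries not overlapping. In SU-DHL-5 it was at 1.04 and 1.33 RPKM with DMSO and 1.05 and 1.14 with JQ1, close to the filter. The JQ1 libraries lay within the range of the DMSO libraries there, and the log2 ratio of -0.10 had an interval from -0.53 to 0.28, on 112 and 98 reads.

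TRIB3 (chr20:380664-397559) encodes a pseudokinase that binds AKT and feeds back on ATF4 and CHOP. With DMSO it was at 17.6 and 17.3 RPKM in SU-DHL-5, and with JQ1 at 8.53 and 7.99, giving a log2 ratio of -1.07 (-1.21 to -0.95). The Toledo libraries were at 24.1 and 19.7 RPKM with DMSO and 6.54 and 7.42 with JQ1, a log2 ratio of -1.64 (-1.79 to -1.53), or 3.11-fold lower. The interval in SU-DHL-5 spans the 2-fold line, and with a pseudocount of 1 RPKM it was no longer past it.

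CHAC1 (chr15:40953438-40956519) encodes an enzyme that degrades glutathione. SU-DHL-5 had CHAC1 at 10.3 and 9.14 RPKM with DMSO and 4.78 and 3.90 with JQ1, a log2 ratio of -1.14 (-1.39 to -0.91), an interval that spans the 2-fold line. The Toledo libraries held it at 3.12 and 3.0 RPKM with DMSO and 1.62 and 1.59 with JQ1, and the log2 ratio of -0.89 missed the 2-fold line. Its interval there, from -1.34 to -0.54 on 162 and 81 reads, also spans that line, so at this depth the reads do not place CHAC1 on one side of 2-fold in either line. The libraries were apart in both lines.

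DDIT4 (REDD1, chr10:72273919-72276039), which encodes an inhibitor of mTORC1 signaling, differed in direction between the lines. SU-DHL-5 had DDIT4 at 114.9 and 177.7 RPKM with DMSO and 270.2 and 260.6 with JQ1, above both DMSO libraries, a log2 ratio of 0.86 (0.81 to 0.89). The DMSO libraries differed 1.55-fold, so the ratio rests on which of them is used. It was 1.21 with DMSO library 1 alone, which passes the 2-fold line, and 0.58 with DMSO library 2 alone. Toledo had DDIT4 at 26.8 and 32.5 RPKM with DMSO and 21.8 and 20.4 with JQ1, below both DMSO libraries, a log2 ratio of -0.49 (-0.60 to -0.38).

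ASNS (chr7:97852117-97872542), the asparagine synthetase and a classical ATF4 target, also differed in direction, the other way round. SU-DHL-5 had ASNS at 94.7 and 84.3 RPKM with DMSO and 75.2 and 77.4 with JQ1, a log2 ratio of -0.23 (-0.28 to -0.18). Toledo had ASNS at 61.6 and 60.4 RPKM with DMSO and 86.9 and 89.3 with JQ1, a log2 ratio of 0.53 (0.48 to 0.58). The libraries were apart in both lines. With 1 sample per condition the difference between the lines was not tested. Of the 8495 genes tested in both lines, 4.9% were apart upward in SU-DHL-5 and downward in Toledo, as DDIT4 was, and 2.02% the reverse, as ASNS was.

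SLC3A2 (chr11:62856012-62888883) encodes CD98hc, the heavy chain that carries several amino acid transporters, among them SLC7A11, to the cell surface. Toledo had it at 100.8 and 99.8 RPKM with DMSO and 71.2 and 73.4 with JQ1, a log2 ratio of -0.47 (-0.52 to -0.43), the libraries apart. In SU-DHL-5 it was at 40.7 and 33.2 RPKM with DMSO and 32.8 and 33.4 with JQ1, and the libraries overlapped (log2 ratio -0.16, -0.23 to -0.08).

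SLC7A11 (xCT, chr4:138164094-138242418) encodes the light chain of the cystine and glutamate exchanger and was low throughout. In SU-DHL-5 it was at 0.452 and 0.455 RPKM with DMSO and 0.343 and 0.275 with JQ1, on 144 and 94 reads, and the interval of the read ratio ran from -0.94 to -0.16. Toledo libraries were at 0.279 and 0.412 RPKM with DMSO and 0.114 and 0.0765 with JQ1, on 113 and 30 reads, with an interval from -2.48 to -1.26. The pseudocount draws the log2 ratios toward 0, to -0.44 in SU-DHL-5 and -1.19 in Toledo, against -0.55 and -1.86 without it. The libraries were apart in both lines. Counting SLC7A11, 6 of the 10 genes lay below DMSO in both lines. Of the 8495 genes tested in both lines, 28.9% were below in both, a share that leaves out genes under the filter such as SLC7A11. None of the 10 genes lay above in both, and the share of all genes above in both was not computed.

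**Figure D2:**
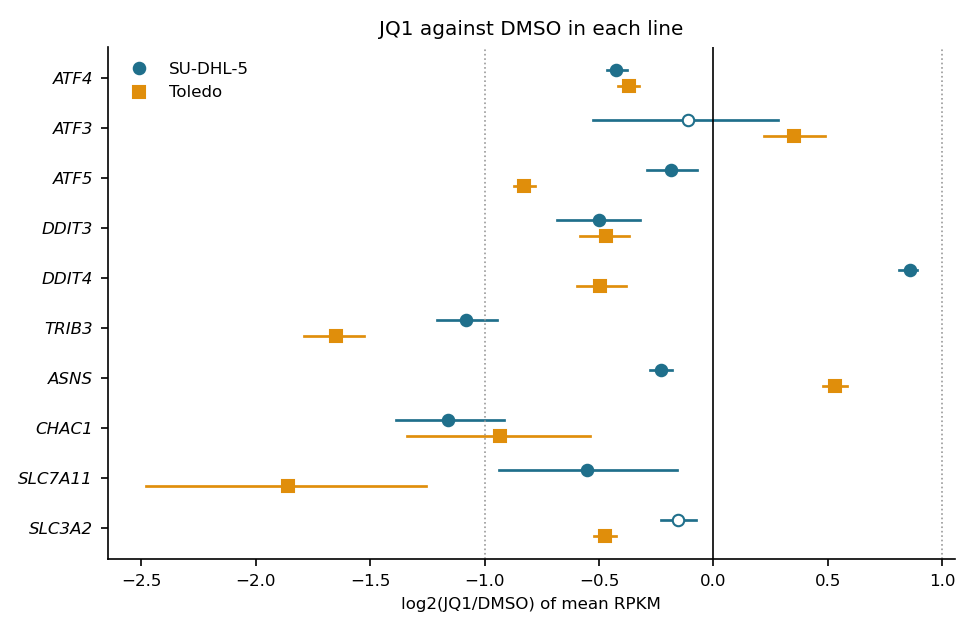
log2 ratio of mean RPKM with JQ1 to DMSO, without a pseudocount (x axis), for the 10 genes (y axis) in SU-DHL-5 (circles) and Toledo (squares). Bars are 95% counting intervals of the read ratio, open symbols mark overlapping libraries and dotted lines mark 2-fold. TRIB3 lies beyond the lower line in both lines, and DDIT4 and ASNS lie on opposite sides of 0 in the 2 lines.

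Several of these genes share exons with neighbours, and whether reads were counted by strand is not given in the sources used here. ATF5 shares 626 bases with NUP62, DDIT3 355 bases with MARS, DDIT4 847 bases with DDIT4-AS1 and SLC7A11 865 bases with SLC7A11-AS1, each on the opposite strand. ASNS shares 1985 bases with the processed transcript AC079781.5 on the same strand. The share of their reads that came from these neighbours was not tested.

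The order of the levels differed between the lines already with DMSO. In SU-DHL-5, ATF4 (mean 161.3 RPKM) and DDIT4 (146.3) stood highest and overlapped between libraries, followed by ASNS (89.5) and SLC3A2 (36.9). ATF5 (19.1), TRIB3 (17.5) and DDIT3 (16.2) came next, each overlapping its neighbour, and then CHAC1 (9.71), ATF3 (1.18) and SLC7A11 (0.453). In Toledo, ATF5 (142.6) and ATF4 (140.7) stood highest and overlapped, followed by SLC3A2 (100.3), ASNS (61.0), DDIT3 (43.4), DDIT4 (29.7), TRIB3 (21.9), ATF3 (8.50), CHAC1 (3.06) and SLC7A11 (0.346), with no further overlap between neighbours. With JQ1 no neighbours overlapped in either line, and DDIT4 (265.4) stood above ATF4 (120.2) in SU-DHL-5, while ASNS (88.1) stood above ATF5 (80.2) in Toledo.

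Between the untreated lines, 4 of the 9 genes that passed were more than 2-fold higher in Toledo and 2 more than 2-fold higher in SU-DHL-5, the libraries apart for each, while 14.8% and 13.6% of the 9630 genes tested were. ATF5 was 7.44-fold, ATF3 6.71-fold, SLC3A2 2.71-fold and DDIT3 2.67-fold higher in Toledo. DDIT4 was 4.92-fold and CHAC1 3.11-fold higher in SU-DHL-5. ASNS was 1.47-fold and ATF4 1.15-fold higher in SU-DHL-5 and TRIB3 1.25-fold higher in Toledo. SLC7A11 was under the filter in both. These comparisons set 2 cell lines of 1 untreated sample each side by side.

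The transcripts of TRIB3 and SLC3A2 were grouped by start site, and transcript values need not add up to the gene value. Other genes of the 10, ATF3 among them, also have more than 1 start and were not grouped. In Toledo, ATF3_1, from the first ATF3 start, was at 1.65 and 1.03 RPKM with DMSO and 0 and 0 with JQ1. ATF3_4, from a later start, was at 9.35 and 10.4 RPKM with DMSO and 13.2 and 12.8 with JQ1. In SU-DHL-5, ATF3_1 was at 0 in every library. The SLC3A2 transcripts that begin at the first start (62856012) were at 36.5 and 40.3 summed RPKM with DMSO and 16.4 and 16.3 with JQ1 in Toledo, a log2 ratio of -1.23. The transcript from the later start (62880872) was at 91.1 and 85.0 RPKM with DMSO and 75.5 and 78.7 with JQ1, a ratio of -0.19. In SU-DHL-5 the first start stood at 21.8 and 14.1 against 11.4 and 14.3 (ratio -0.48), and the later one at 28.3 and 27.6 against 30.2 and 27.6 (0.05), both with overlap. For TRIB3 the transcripts from the later starts were lower still than the one from the first start. In SU-DHL-5 the ratios were -0.62 for the first start and -1.88 for the later ones, and in Toledo -1.42 and -1.89, all without overlap.

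**Figure D3:**
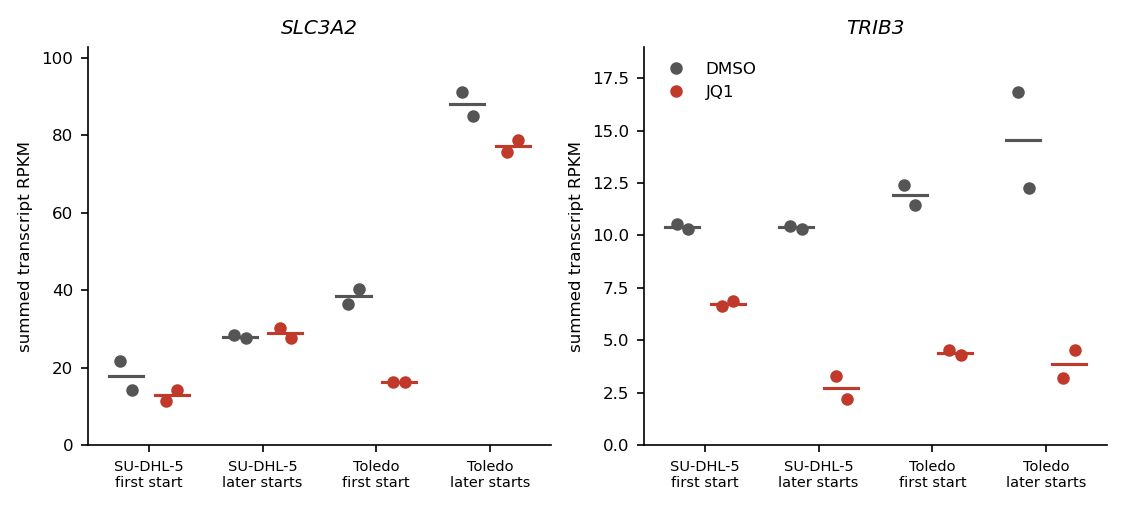
Summed transcript RPKM (y axes, from 0) of SLC3A2 and TRIB3 by start site, with DMSO in grey and JQ1 in red, points for libraries and lines for their mean. In Toledo the first start of SLC3A2 is at 16.4 and 16.3 RPKM with JQ1 and the later start at 75.5 and 78.7.

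Of 72 other genes of the pathway and its neighbours, 62 were tested in SU-DHL-5 and 61 in Toledo. In SU-DHL-5, 0 were called higher and 5 lower, and in Toledo 0 and 4, beside the 1.68% and 5.54% of all genes in SU-DHL-5, with 1.68% and 6.81% in Toledo. Without a fold, 23 were above and 36 below DMSO in SU-DHL-5, and 10 above and 42 below in Toledo, beside 42.3% and 38% of all genes in SU-DHL-5, with 29.7% and 42.9% in Toledo. The tested genes had a median ratio of -0.16 in SU-DHL-5. Toledo gave a median of -0.34. The medians of all genes tested were 0.02 and -0.06.

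Upstream of ATF4, of the 10 kinases, phosphatase subunits and related genes tested, 0 were called in either line, with 4 above and 6 below DMSO in each, beside 42.3% above and 38% below over all genes in SU-DHL-5, with 29.7% and 42.9% in Toledo. EIF2AK1, the heme-regulated eIF2 kinase, was at 38.9 and 39.3 RPKM with DMSO and 52.3 and 52.3 with JQ1 in SU-DHL-5 (0.42). In Toledo it was at 50.2 and 56.0 against 62.5 and 62.0 (0.23). The other kinases had lower values with JQ1, with ratios in SU-DHL-5 and Toledo of -0.58 and -0.47 for EIF2AK2 (PKR), -0.21 and -0.29 for EIF2AK3 (PERK) and -0.13 and -0.54 for EIF2AK4 (GCN2). The phosphatase subunits that reverse eIF2 phosphorylation had higher values, at 0.42 and 0.17 for PPP1R15A and 0.26 and 0.34 for PPP1R15B. The libraries of all 6 genes were apart in both lines.

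Among the genes of amino acid synthesis and one-carbon metabolism, all 9 tested lay below DMSO in SU-DHL-5 and 6 of 9 in Toledo, where 38% and 42.9% of all genes did. In each line 2 of the 9 were called lower, beside 5.54% and 6.81% of all genes. PYCR1, which makes proline, was at 21.1 and 17.4 RPKM with DMSO and 2.47 and 2.64 with JQ1 in SU-DHL-5, giving a log2 ratio of -2.86. In Toledo PYCR1 was at 27.1 and 25.8 RPKM against 5.02 and 5.78, a ratio of -2.27. The other gene called was CTH (-1.02), of the transsulfuration path, in SU-DHL-5 and GPT2 (-1.10), an alanine aminotransferase, in Toledo. The last pair was not called in both lines and was therefore chosen after the values were seen.

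The calls in the next lists stand beside the 5.54% of all genes called lower in SU-DHL-5 and the 6.81% in Toledo. Of 6 amino acid transporters tested, SLC38A1, a glutamine transporter, was called lower in SU-DHL-5 (-1.14) and none in Toledo (SLC38A1 -0.44). Of the other ATF4 targets and partners, 0 of 11 were called in SU-DHL-5 and 1 of 10 in Toledo, where VEGFA had a ratio of -1.21 (0.24 in SU-DHL-5), and STC2 and NUPR1 are listed at 0 in every library. In the XBP1 and ATF6 arms of the unfolded protein response, XBP1 (-1.20) and SDF2L1 (-1.0) were called lower among 14 tested in SU-DHL-5 and 0 of 15 in Toledo, where they had ratios of -0.96 and -0.79. Of the NRF2 and glutathione genes, 0 of 11 were called in SU-DHL-5 and NQO1 (-1.0) among 10 in Toledo, with a ratio of 0.48 in SU-DHL-5. Of the light chains of SLC3A2, the pair that was tested (SLC7A5 and SLC7A6) was called in neither line, with a median ratio of -0.04 in SU-DHL-5, against -0.74 in Toledo.

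**Figure D4:**
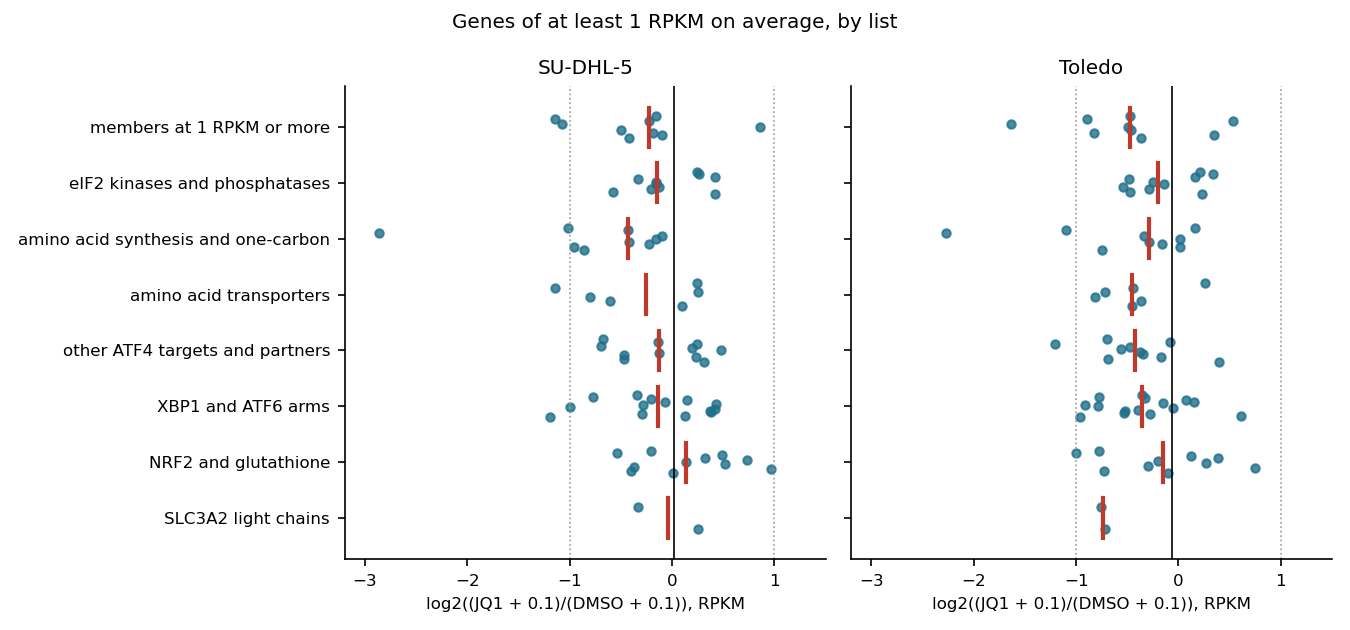
log2 ratio of JQ1 to DMSO on the RPKM + 0.1 scale (x axis) for the genes tested of each list (y axis), in SU-DHL-5 and Toledo. Points are genes, red bars the median of a list, the black line the median of all genes tested (0.02 and -0.06), and the dotted lines 2-fold. Of the genes plotted, which leave out the cell type markers, PYCR1 lies farthest to the left in both lines, at -2.86 and -2.27.

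The genes whose levels followed ATF4 most closely over the 8 libraries, by Pearson's r of log2(RPKM + 0.1) among 9520 genes, were MAFF (0.989), GEMIN8 (0.988), SMYD2 (0.979), DNAJC18 (0.977) and TMEM106C (0.976). The 8 points are libraries of 4 samples, so this r describes the shared pattern of those samples and has no p-value. All 5 had lower values with JQ1 in both lines, from -0.28 for SMYD2 to -1.57 for MAFF in SU-DHL-5 and from -0.29 for SMYD2 to -1.08 for MAFF in Toledo. Among the 10 genes, TRIB3 (0.837) and CHAC1 (0.819) followed ATF4 most closely, and the other 6 with a value lay between -0.41 for ATF3 and 0.30 for DDIT4.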

How the data were processed

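RNA of 4 samples (2 lines, DMSO or JQ1, n = 1 each) was sequenced by the authors with the TruSeq stranded mRNA kit. For 8 libraries, the authors deposited tables of RPKM by gene and by transcript. The submitters' processing notes name CASAVA 2.0 and GRCh38, and the aligner, the counting and the annotation are not given in the sources used here. The pair of libraries of each sample was averaged.

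Mapped reads per library were recovered as the total that brought the RPKM values of single-exon genes closest to whole reads. The length of each gene was then fitted as the smallest that gave whole reads in all its libraries, within about 0.02 reads. A length was found for 14942 of 14944 genes with a value. Since the length was left free, this count alone does not check the read numbers. No count model was fitted. A limma fit on log2(RPKM + 0.1) of the 4 samples, with the line as a block and Benjamini-Hochberg adjustment over 8495 genes, was added after seeing the data. Intervals are exact binomial at 95% and cover counting error only. Calls, recovery and the limma fit were tested on simulated data. The simulated libraries held sampling noise only, which is less than the pairs of libraries here showed, and the limma simulation gave all genes the same noise. False calls at the noise of these data were therefore not tested. Positions in the files overlapped GRCh38.p14 for 99.9% of 32649 symbols and are given from 1. Exon overlaps came from GENCODE.

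The members and lists were chosen with earlier results of these data known. Named genes were all members, the eIF2 kinases and PPP1R15 genes, from each other list up to 5 genes called the same way in both lines or else up to 3 called in 1 line, and the 5 genes most like ATF4. Alternatives varied the pseudocount (0.01 and 1 RPKM), the filter (none and 5 RPKM), the scaling, the table, the libraries, the length centring and the cutoff (1.5-fold). Leaving out DMSO library 1 or 2 was added after seeing the data. The software was matplotlib 3.10.9, scipy 1.17.1, pandas 2.3.3 and numpy 2.4.6 under Python 3.11.15, and limma 3.58.1 under R 4.3.3.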

Additional observations from a re-analysis of the deposited data

Results flagged for a closer look

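DDIT4 and ASNS had JQ1 libraries on opposite sides of the DMSO libraries in the 2 lines. DDIT4 had a log2 ratio of 0.86 in SU-DHL-5, against -0.49 in Toledo. ASNS had one of -0.23 in SU-DHL-5, against 0.53 in Toledo. With 1 sample per condition, the difference between the lines was not tested for either gene.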

How the results depend on the processing

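Each log2 ratio of the 10 genes in the 2 lines was recomputed under the 9 alternatives that can change it, giving 180 values, of which 130 moved by less than the counting interval of the ratio and 50 by more. The sign changed in 3, for ATF3 in SU-DHL-5 in library 1 alone (0.02) and with DMSO library 2 left out (0.07), and for SLC3A2 in SU-DHL-5 in library 2 alone (0.01), and these genes overlapped between libraries. The count of genes called lower was 1 in SU-DHL-5 and 0 in both lines with a pseudocount of 1 RPKM, which drops TRIB3 in SU-DHL-5. In Toledo it was 2 with no filter on low values, adding SLC7A11, and 3 at a cutoff of 1.5-fold, adding ATF5 and CHAC1, with 2 called the same way in both lines. The count called higher in SU-DHL-5 was 1, DDIT4, in library 1 alone, at 1.5-fold and with DMSO library 2 left out. The share of all genes called was not computed under these alternatives. These counts therefore cannot be set beside the shares given for the main rule. The median ratio was -0.33 in SU-DHL-5 with no filter, with a filter of 5 RPKM and in library 1 alone, and in Toledo -0.41 after scaling by the median ratio and -0.34 after centring on feature length. Depth limits SLC7A11, and the intervals of CHAC1 in both lines and TRIB3 in SU-DHL-5 span 2-fold. Paired by cell line as a block, limma called 3 genes lower over both lines, where 14% of the 8495 genes were. That fit asks for no fold and no call in each line, so its count is not the same measure as the calls above.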

Other observations

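The genes here were chosen after their values were seen and are given as values. SLC7A7, another light chain of SLC3A2, had a mean under the filter in both lines. It was at 1.95 and 1.58 RPKM with DMSO and 0.207 and 0.117 with JQ1 in SU-DHL-5, and 1.23 and 1.39 against 0.236 and 0.158 in Toledo. SLC6A9, a glycine transporter, was at 0.742 and 0.526 against 0.0328 and 0.0741 RPKM in SU-DHL-5 and 1.18 and 1.00 against 0.233 and 0.269 in Toledo.

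Beside CHAC1, which degrades glutathione, GCLC, GSS and GPX4, of its synthesis and use, stood higher with JQ1 in both lines without reaching 2-fold. GCLM stood lower in both, and GSR went both ways (SU-DHL-5 0.14, Toledo -0.20). The genes other than CHAC1 come from the NRF2 and glutathione list. For SU-DHL-5, 6 of its 11 tested genes lay above DMSO and 4 below, where 42.3% and 38% of all genes did. Toledo had 3 of 10 above and 5 below, where 29.7% and 42.9% did. GCLC, the catalytic subunit of the rate-limiting enzyme of glutathione synthesis, was at 8.27 and 8.74 RPKM with DMSO and 16.6 and 16.8 with JQ1 in SU-DHL-5 (log2 ratio 0.97), and at 5.86 and 6.64 against 11.2 and 9.98 in Toledo (0.75). GPX4, which reduces lipid peroxides with glutathione, had ratios of 0.73 and 0.39. GSS, the glutathione synthetase, had ratios of 0.52 and 0.27, and GCLM, the other subunit of the enzyme of GCLC, -0.37 and -0.29. In serine synthesis, PHGDH was lower in both lines (-0.86 and -0.75), while PSAT1 was at 83.4 and 82.4 against 42.1 and 42.9 RPKM in SU-DHL-5 (-0.96) and at 1.5 and 1.75 against 1.66 and 1.62 in Toledo (0.01).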
